A study of Mus musculus with 12 samples.

Results

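The collagens and the extracellular matrix of the mouse small intestine are described here through 40 genes. These genes were chosen by name, with earlier results of these data known. They comprise 5 fibrillar collagens, 3 chains of type VI collagen, 9 basement membrane genes, 1 fibril-associated collagen, 4 proteoglycans, 7 genes of elastic fibres and cross-linking, 6 matricellular or adhesive proteins, 2 genes of collagen processing, and 3 genes for a matrix protease and protease inhibitors. Of the 40 genes, 39 were found by a probe set (the group of probes that reads 1 transcript) with a single gene symbol, among 12394 such genes in the series, and Fbn1 was not analysed here. A level filter, a mean intensity over 20 in wild-type fed mice, left 25 of them for the tests, with 38 of their 76 probe sets. The other 14 (Col14a1, Col15a1, Lama4, Lamc1, Nid2, Lum, Vcan, Eln, Fbln2, Lox, Loxl1, Mmp2, Thbs1 and Timp3) lay at or below that level. Timp3, Thbs1, Col14a1, Lum and Eln are described with their families, and the brightest probe sets of the remaining 9 genes read between 3.79 (Lox) and 17.8 (Mmp2) over all 12 arrays.

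The arrays came from whole small intestines of male mice of 14 weeks in 4 groups of 3 biological replicates: PPARα-null mice (129S4/SvJae) fasted for 24 h, PPARα-null mice with free access to feed, wild-type mice (129S1/SvImJ) fasted for 24 h, and wild-type mice with free access to feed. The series record gives an AIN93M diet for all groups, whereas the published methods give a standard laboratory chow. The labels of the fed arrays give the strain only as 129Sv. PPARα is the nuclear receptor that fatty acids activate, and since the PPARα-null and wild-type mice are of different 129 substrains, genotype and substrain cannot be told apart. The probe set of Ppara read 13.2, 11.7 and 11 in PPARα-null fasted mice, 6.84, 7.5 and 7.35 in PPARα-null fed mice, 58.7, 48.1 and 30.8 in wild-type fasted mice, and 19.9, 34 and 35.9 in wild-type fed mice. A description field names the wild-type fasted arrays as knockout, but their titles, strain and Ppara values place them with the wild type.

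The extracellular matrix of the gut is made mainly by fibroblasts, smooth muscle cells and endothelial cells that lie under the epithelium and in the muscle wall. Fibrillar collagens give the wall its tensile strength, type VI collagen forms a beaded network around cells, and type IV collagen, laminins and nidogens form the thin basement membrane on which epithelium, vessels and muscle rest. Collagen chains fold in the endoplasmic reticulum with the help of a dedicated chaperone, are trimmed after secretion, and are later broken down by metalloproteases that tissue inhibitors (the Timp proteins) hold in check.

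Intensities are those deposited, on the linear scale. Fed and fasted arrays had separate distributions of values (array medians of 11.05 to 11.33 when fasted and 12.65 to 12.81 when fed), so feeding state and the way each set had been normalized cannot be told apart. The median log2 difference, fasted minus fed, was −0.32 over the tested probe sets, and each log2 change upon fasting below is relative to that shift, whereas printed intensities still contain it. A gene was called higher or lower where a probe set differed by more than 1.3-fold with an unadjusted p below 0.01 (limma, a linear model with variances shared across probe sets), and for the difference between the fasting responses of the genotypes the adjusted p had to be below 0.05 instead. Adjustment was by Benjamini-Hochberg over the 9370 tested probe sets, and errors of log2 changes are standard errors (SE, 3 arrays a group).

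Upon fasting, 14 of the 25 matrix genes fell in wild-type mice and 0 rose, whereas 9.95% of all 5821 tested genes fell and 12.9% rose. In PPARα-null mice 11 of the 25 fell and 4 rose, whereas 29.1% of all genes fell and 22.6% rose. The share of matrix genes that fell thus lay well above the background in wild-type mice and nearer to it in PPARα-null mice, where many more genes changed. At an unadjusted p under 0.05 by limma, 18 of the 25 passed in PPARα-null mice, against 68.1% of all tested genes, and 16 of the 25 in wild-type mice, against 44.6%. The median log2 change of the matrix genes was −0.08 in PPARα-null mice (−0.05 over all tested genes) and −0.42 in wild-type mice (0.03 over all tested genes). With the values as deposited, and no shift removed, 13 genes fell and 1 rose in PPARα-null mice, where 50.4% of all tested genes fell, so that count lay at the background. In wild-type mice 20 fell and 0 rose on that scale, against 38.6% of all tested genes that fell.

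Of the 5 fibrillar collagen genes, 4 fell in PPARα-null mice and 4 in wild-type mice, against 29.1% of all tested genes in PPARα-null mice and 9.95% in wild-type mice. Col3a1 encodes the chain of type III collagen, the fine fibrils of the gut wall. Its main probe set (1427883_a_at) read 111, 182 and 136 in PPARα-null fasted mice and 1185, 1003 and 871 in PPARα-null fed mice. It read 367, 518 and 427 in wild-type fasted mice and 1203, 1113 and 1147 in wild-type fed mice. Every fasted array lay below every fed array, and the 3 PPARα-null fasted arrays lay below all the others. Relative to the shift, Col3a1 fell by 2.54 ± 0.17 on the log2 scale in PPARα-null mice (5.81-fold, adjusted p = 2.107e-07) and by 1.10 ± 0.17 in wild-type mice (2.14-fold, adjusted p = 0.0011). The difference between the responses, PPARα-null minus wild-type, was −1.44 ± 0.24 (adjusted p = 0.0014). A dimmer probe set of the same gene (1427884_at) read 9.2 to 9.54 in PPARα-null fasted mice, 17.5 to 28.1 in PPARα-null fed mice, 11.1 to 12.7 in wild-type fasted mice and 16.4 to 30.3 in wild-type fed mice. It fell by 0.88 in PPARα-null mice and by 0.62 in wild-type mice, where the call was lost on leaving out any of 8 arrays (−0.68 to −0.59), but its difference between the responses was −0.26 with a 95% interval of −0.86 to 0.34 (adjusted p = 0.55), so the probe sets of Col3a1 disagree on that difference.

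Col1a1 and Col1a2 encode the chains of type I collagen, the main collagen of the submucosa. Col1a1 read 16.8, 20.1 and 16.2 in PPARα-null fasted mice and 75.8, 75.3 and 75.2 in PPARα-null fed mice. It read 23.6, 29 and 29.9 in wild-type fasted mice and 78.3, 109 and 94.8 in wild-type fed mice. Fed and fasted arrays did not overlap in either genotype, and the PPARα-null fasted arrays were the lowest of the 12. Col1a1 fell by 1.78 ± 0.13 in PPARα-null mice (3.44-fold, adjusted p = 3.788e-07) and by 1.45 ± 0.13 in wild-type mice (2.74-fold, adjusted p = 3.942e-05). The difference between these responses was −0.33 with a 95% interval of −0.73 to 0.07 and was not called. Col1a2 (1450857_a_at) read 50.6, 41.8 and 45.4 in PPARα-null fasted mice, against 127, 119 and 98.1 in PPARα-null fed mice, and 38.3, 63.2 and 56.2 in wild-type fasted mice, against 94.8, 138 and 123 in wild-type fed mice. Fed and fasted arrays again did not overlap, with falls of 1.0 ± 0.18 in PPARα-null mice (adjusted p = 0.00053) and 0.87 ± 0.18 in wild-type mice (adjusted p = 0.0054). A dimmer Col1a2 probe set fell as well, by 0.54 in PPARα-null mice and by 0.57 in wild-type mice, but missed the threshold without PPARα-null fasted replicate 2 (−0.36), PPARα-null fed replicate 1 (−0.46), PPARα-null fed replicate 2 (−0.46) or wild-type fasted replicate 2 (−0.53) in the genotype concerned.

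The chains of type V collagen, which sit in the core of type I fibrils, were measured at lower intensity. Col5a2 (1422437_at) read 19.6, 21.6 and 18.1 in PPARα-null fasted mice, against 47.5, 43.1 and 33.9 in PPARα-null fed mice, and 19.8, 25.1 and 26.8 in wild-type fasted mice, against 46, 48.4 and 41.3 in wild-type fed mice. It fell by 0.74 ± 0.14 in PPARα-null mice and by 0.62 ± 0.14 in wild-type mice. Col5a1 did not pass the test in either genotype, with log2 changes of −0.29 (95% interval −0.57 to −0.01) in PPARα-null mice and −0.25 (−0.53 to 0.02) in wild-type mice. The fibril-associated Col14a1 lay below the level filter, at 6.5 to 8.5 in PPARα-null fasted mice, 13.3 to 17 in PPARα-null fed mice, 7.96 to 9.86 in wild-type fasted mice and 17.7 to 22.8 in wild-type fed mice.

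**Figure D1:**
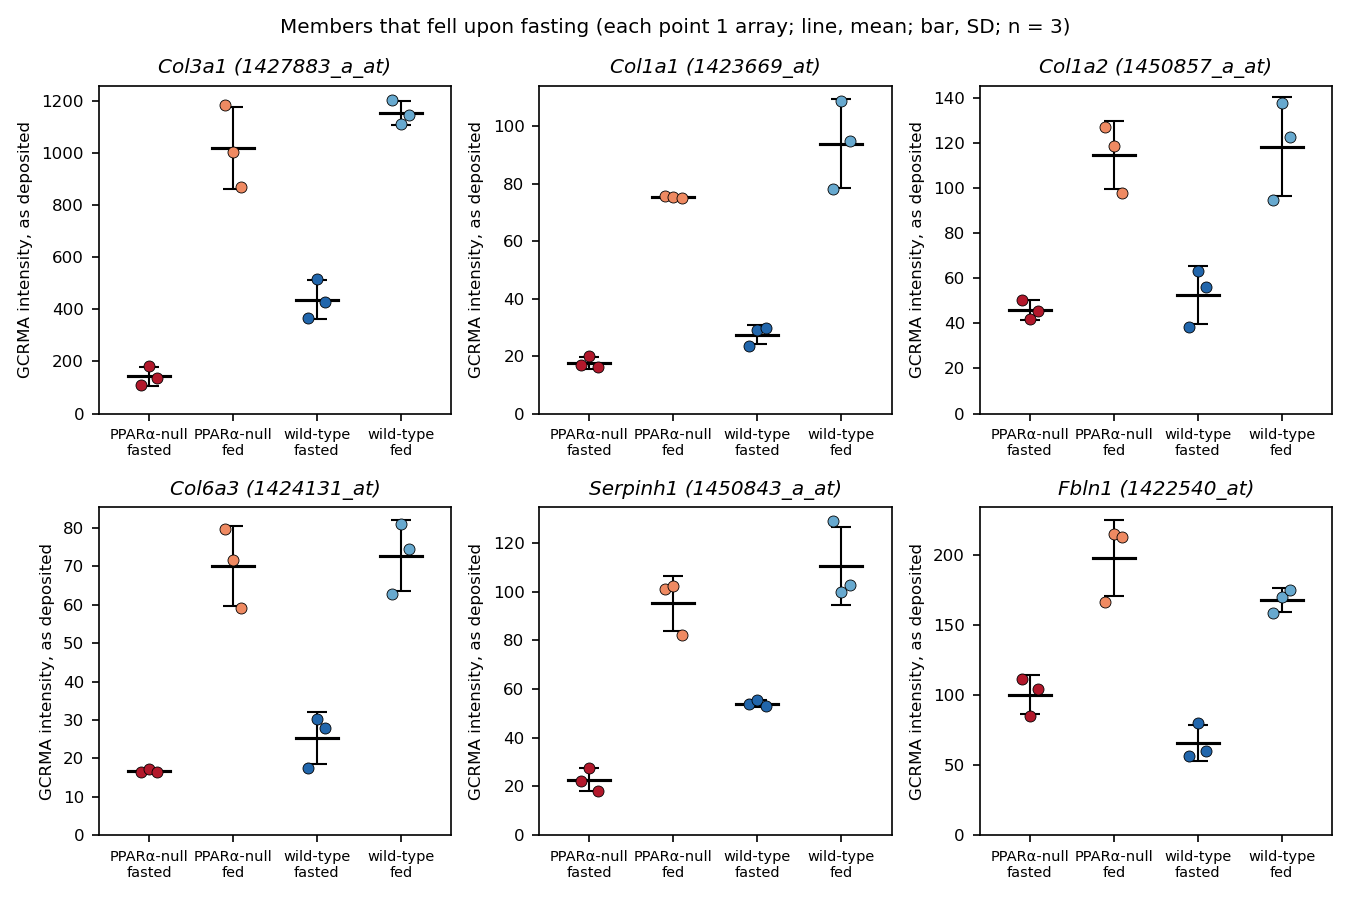
Intensity (linear scale, deposited GCRMA values) of Col3a1, Col1a1, Col1a2, Col6a3, Serpinh1 and Fbln1 on each array in the 4 groups. Fbln1 is shown by its dimmer probe set (1422540_at) and the other genes by their probe set of highest mean. Points are arrays, lines are group means and bars are SD (n = 3). In the Col3a1 panel the PPARα-null fasted arrays sit at 111 to 182 and the wild-type fasted arrays at 367 to 518.

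Promoter sequences are shown for 3 genes that fell together, Col3a1, Col1a2 and the collagen chaperone Serpinh1, and for Timp3, which read higher upon fasting. Of the 40 genes, 24 had an entry in the RefSeq promoter table (GRCm38.p6, 250 bases before to 50 after the annotated start, printed in the direction of the gene). Capitals mark the letters CCAAT, the GC box GGGCGG or the TATA box, searched for as TATAAA, each read on either strand. Col3a1 lies at chr1:45311288-45311587 (+), Col1a2 at chr6:4505368-4505667 (+), Serpinh1 at chr7:99353190-99353489 (−) and Timp3 at chr10:86300162-86300461 (+).
Col3a1: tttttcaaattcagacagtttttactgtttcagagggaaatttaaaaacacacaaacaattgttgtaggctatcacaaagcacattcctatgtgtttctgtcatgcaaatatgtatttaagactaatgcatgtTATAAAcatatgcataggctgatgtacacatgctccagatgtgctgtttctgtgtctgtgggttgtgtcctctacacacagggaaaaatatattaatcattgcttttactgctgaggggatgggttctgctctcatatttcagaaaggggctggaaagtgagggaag
Col1a2: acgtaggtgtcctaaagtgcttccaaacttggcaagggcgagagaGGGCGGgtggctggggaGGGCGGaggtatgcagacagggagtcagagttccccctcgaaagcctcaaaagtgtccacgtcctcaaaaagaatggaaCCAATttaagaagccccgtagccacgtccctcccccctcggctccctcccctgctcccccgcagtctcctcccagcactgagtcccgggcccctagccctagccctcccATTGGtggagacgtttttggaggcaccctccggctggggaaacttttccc
Serpinh1: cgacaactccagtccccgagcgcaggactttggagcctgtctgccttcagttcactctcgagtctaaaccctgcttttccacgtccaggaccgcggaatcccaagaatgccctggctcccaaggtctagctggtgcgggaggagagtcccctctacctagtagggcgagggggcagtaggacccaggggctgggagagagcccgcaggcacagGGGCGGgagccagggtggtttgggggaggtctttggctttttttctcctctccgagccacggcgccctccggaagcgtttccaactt
Timp3: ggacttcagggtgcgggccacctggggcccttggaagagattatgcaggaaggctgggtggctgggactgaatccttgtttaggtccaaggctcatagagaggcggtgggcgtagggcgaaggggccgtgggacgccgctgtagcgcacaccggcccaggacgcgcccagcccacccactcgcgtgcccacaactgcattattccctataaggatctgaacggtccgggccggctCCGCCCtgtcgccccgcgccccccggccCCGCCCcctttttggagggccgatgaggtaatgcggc
The Col3a1 window holds 1 TATA box, the Col1a2 window 2 CCAAT boxes and 2 GC boxes, the Serpinh1 window 1 GC box and the Timp3 window 2 GC boxes. Of the 24 matrix genes with an entry, 18 had a GC box in a promoter (35.7% of all 32851 promoters). A CCAAT box was in 10 of the 24 genes (37.4%) and a TATA box in 2 of 24 (13.6%), namely Col3a1 and Postn. The percentages count promoters and the matrix counts are of genes, so a gene with several promoters would have more chances to match. The direct repeat of AGGTCA with 1 base between its copies, an idealised PPAR response element, was in 0 of 24 and in 0.0396% of all promoters (13 of them), and no motif searched contains another.

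Type VI collagen was split. Col6a3 read 16.5, 17.3 and 16.4 in PPARα-null fasted mice and 79.9, 71.6 and 59.1 in PPARα-null fed mice. It read 17.6, 30.2 and 28 in wild-type fasted mice and 62.7, 81 and 74.6 in wild-type fed mice. All 6 fasted arrays lay below all 6 fed arrays, and the log2 change was −1.74 ± 0.18 in PPARα-null mice (3.35-fold, adjusted p = 5.842e-06) and −1.24 ± 0.18 in wild-type mice (2.37-fold, adjusted p = 0.00068). Col6a2 (1452250_a_at) read 201, 147 and 123 in PPARα-null fasted mice, against 340.2, 281 and 262 in PPARα-null fed mice, and 144, 131 and 169 in wild-type fasted mice, against 329, 431 and 375 in wild-type fed mice. It fell by 0.61 ± 0.17 in PPARα-null mice (adjusted p = 0.0091) and by 1.03 ± 0.17 in wild-type mice (adjusted p = 0.0015). Col6a1, the partner chain of both, passed in neither genotype: its changes were 0.18 (95% interval −0.10 to 0.45) in PPARα-null mice and −0.34 (−0.62 to −0.06) in wild-type mice. A second Col6a2 probe set (1426947_x_at) read 23.6, 20.8 and 21.7 in PPARα-null fasted mice, against 28.4, 29.5 and 32.5 in PPARα-null fed mice, and 22.9, 23.2 and 23 in wild-type fasted mice, against 33.8, 51.2 and 54.1 in wild-type fed mice. It fell by 0.66 in wild-type mice (adjusted p = 0.0065) but measured −0.13 in PPARα-null mice (95% interval −0.45 to 0.18, adjusted p = 0.45), so the probe sets of Col6a2 disagree on the fall in PPARα-null mice. The call of probe set 1452250_a_at in PPARα-null mice ended without PPARα-null fasted replicate 2 (−0.58), PPARα-null fasted replicate 3 (−0.45) or PPARα-null fed replicate 1 (−0.50).

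Both genes of collagen processing fell in both genotypes. Serpinh1 encodes HSP47, the endoplasmic reticulum chaperone that binds procollagen. Its main probe set (1450843_a_at) read 22.3, 27.5 and 18.2 in PPARα-null fasted mice and 101, 102 and 82.1 in PPARα-null fed mice. It read 53.6, 55.4 and 52.9 in wild-type fasted mice and 129, 100 and 103 in wild-type fed mice. The groups formed 3 separate bands, with PPARα-null fasted arrays lowest, wild-type fasted arrays between, and the fed arrays of both genotypes highest. Serpinh1 fell by 1.77 ± 0.15 in PPARα-null mice (3.41-fold, adjusted p = 9.598e-07) and by 0.71 ± 0.15 in wild-type mice (1.63-fold, adjusted p = 0.0050), a difference of −1.06 ± 0.21 (adjusted p = 0.0033). A second probe set (1456733_x_at), whose probes can bind other transcripts, gave a difference of −0.25 (95% interval −0.72 to 0.22, adjusted p = 0.45), so that the probe sets of Serpinh1 disagree as those of Col3a1 do. Pcolce, which enhances removal of the procollagen C-propeptide, read 13, 9.41 and 10.5 in PPARα-null fasted mice, against 21.2, 22.6 and 20.8 in PPARα-null fed mice, and 12.5, 10.2 and 9.99 in wild-type fasted mice, against 17.7, 22.8 and 23.3 in wild-type fed mice. It fell by nearly equal amounts, 0.67 ± 0.14 in PPARα-null mice and 0.64 ± 0.14 in wild-type mice, with a difference of −0.03 (95% interval −0.45 to 0.40).

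Of 5 tested genes of the basement membrane, 1 fell and 1 rose in PPARα-null mice, and 1 fell and 0 rose in wild-type mice. With so few genes these counts cannot be set apart from the shares over all genes, and a difference from the fibrillar collagens was not tested. Col4a1 encodes the main chain of type IV collagen. Its probe set 1452035_at read 322, 347 and 342 in PPARα-null fasted mice, against 328, 288 and 251 in PPARα-null fed mice, and 307, 248 and 305 in wild-type fasted mice, against 319, 337 and 344 in wild-type fed mice. Its deposited values thus overlapped or nearly met between fed and fasted arrays, and the rise of 0.54 ± 0.11 in PPARα-null mice (adjusted p = 0.0011) was not called as deposited (0.23). In wild-type mice the change of this probe set was 0.09 (95% interval −0.15 to 0.33). The second Col4a1 probe set (1426348_at) read 98.3, 115 and 94.5 in PPARα-null fasted mice, against 94.9, 92.2 and 93.1 in PPARα-null fed mice, and 81.6, 82.8 and 86 in wild-type fasted mice, against 99.4, 113 and 100.5 in wild-type fed mice. It rose by 0.44 ± 0.09 in PPARα-null mice, a call that was absent as deposited (0.13) and without PPARα-null fasted replicate 2 (0.37), and in wild-type mice its 95% interval ran from −0.20 to 0.19. These responses differed by 0.45 ± 0.13 (adjusted p = 0.023). The call of the difference ended without PPARα-null fasted replicate 2 (0.36) or wild-type fed replicate 2 (0.39), and the first probe set gave 0.45 with an adjusted p of 0.056.

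Nid1, the nidogen that links laminin to type IV collagen, read 9.4, 13.1 and 12.7 in PPARα-null fasted mice, against 25.3, 23.5 and 17.9 in PPARα-null fed mice, and 13.3, 13.4 and 12.2 in wild-type fasted mice, against 27.2, 20 and 25.5 in wild-type fed mice. It fell by 0.60 ± 0.16 in PPARα-null mice (adjusted p = 0.0064) and by 0.58 ± 0.16 in wild-type mice (adjusted p = 0.021). These calls were not firm: Nid1 missed the threshold without PPARα-null fasted replicate 1 (−0.45), PPARα-null fed replicate 1 (−0.50) or PPARα-null fed replicate 2 (−0.56) in PPARα-null mice, and with wild-type fasted replicate 3 (−0.54) or wild-type fed replicate 1 (−0.47) or 3 (−0.54) left out in wild-type mice. Col18a1, the source of endostatin, read 35.9, 38.6 and 34 in PPARα-null fasted mice, against 39, 32 and 36 in PPARα-null fed mice, and 30.2, 34 and 26.6 in wild-type fasted mice, against 43.4, 47.9 and 50.2 in wild-type fed mice (1418237_s_at). Neither response passed alone, at 0.34 (95% interval 0.10 to 0.57) in PPARα-null mice and −0.33 (−0.57 to −0.09) in wild-type mice, yet they differed by 0.67 ± 0.15 (adjusted p = 0.0086). The other Col18a1 probe set gave a difference of 0.40 (−0.16 to 0.95) and was not called. The second chain of type IV collagen, Col4a2, passed no test, with changes of 0.26 in PPARα-null mice and −0.14 in wild-type mice. The laminin chain Lamb1 passed none either, at 0.29 in PPARα-null mice and 0.21 in wild-type mice.

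Decorin and biglycan, the small leucine-rich proteoglycans that coat collagen fibrils, were not called lower upon fasting in PPARα-null mice. Dcn read 461, 452 and 447 in PPARα-null fasted mice and 459, 381 and 412 in PPARα-null fed mice. It read 261, 366 and 436 in wild-type fasted mice and 462, 533 and 509 in wild-type fed mice, with replicate 1 the lowest of the wild-type fasted arrays. Dcn was not called in either genotype (0.44, adjusted p = 0.024, in PPARα-null mice and −0.22, adjusted p = 0.32, in wild-type mice), and the difference of 0.65 ± 0.21 passed narrowly (adjusted p = 0.041). It missed the threshold on leaving out any of 9 arrays, with values from 0.45 without wild-type fasted replicate 1 to 0.69 without wild-type fasted replicate 2. Bgn has 3 tested probe sets, and they differ. Probe set 1448323_a_at read 376, 297 and 269 in PPARα-null fasted mice, against 309, 219 and 228 in PPARα-null fed mice, and 196, 214 and 258 in wild-type fasted mice, against 243, 345 and 349 in wild-type fed mice. Probe set 1416405_at read 195, 169 and 168 in PPARα-null fasted mice, against 230.2, 205 and 209 in PPARα-null fed mice, and 136, 136 and 156 in wild-type fasted mice, against 232, 259 and 269 in wild-type fed mice. The first rose by 0.64 ± 0.18 in PPARα-null mice, a call that was absent as deposited (0.32), and the second fell by 0.51 ± 0.10 in wild-type mice (adjusted p = 0.0030), as did the third (−0.48). The responses differed by 0.80 ± 0.25 for the first (adjusted p = 0.039) and by 0.55 ± 0.14 for the second (adjusted p = 0.012), while the third, at 0.50, had an adjusted p of 0.099.

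The calls on the first Bgn probe set were not firm when arrays were left out. Its rise in PPARα-null mice was lost without PPARα-null fasted replicate 1 (0.50), PPARα-null fed replicate 2 (0.54) or PPARα-null fed replicate 3 (0.57), and its difference between the responses was lost on leaving out any of 8 arrays (0.66 to 0.83). The third Bgn probe set lost its fall in wild-type mice with wild-type fasted replicate 1 (−0.38) or 2 (−0.46), or wild-type fed replicate 2 (−0.42) or 3 (−0.40), left out. Lum and Vcan, the other proteoglycans, lay below the level filter, with Lum at 9.20 to 13.6 in PPARα-null fasted mice, 13.1 to 15.6 in PPARα-null fed mice, 7.08 to 12.9 in wild-type fasted mice and 16.2 to 17.7 in wild-type fed mice.

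Of the elastic fibre and cross-linking genes only the fibulins Fbln1 and Fbln5 passed the level filter. Fbln5 helps to assemble elastic fibres. It read 36.1, 33.9 and 31.3 in PPARα-null fasted mice and 40.7, 44.7 and 23.5 in PPARα-null fed mice. It read 17.5, 19 and 24.3 in wild-type fasted mice and 36.6, 41.9 and 46.8 in wild-type fed mice, so that the wild-type fasted arrays stood below all but 1 of the others. Fbln5 fell by 0.73 ± 0.20 in wild-type mice (adjusted p = 0.021), whereas its change in PPARα-null mice was 0.26 (95% interval −0.18 to 0.71), and the responses differed by 1.0 ± 0.29 (adjusted p = 0.026). The fall of Fbln5 in wild-type mice missed the threshold with wild-type fasted replicate 1 (−0.63) or 2 (−0.69), or wild-type fed replicate 2 (−0.73) or 3 (−0.65), left out. The difference did so with PPARα-null fasted replicate 1 (0.95), wild-type fasted replicate 1 (0.90) or 2 (0.96), or wild-type fed replicate 3 (0.91) left out.

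Fbln1, a fibulin of basement membranes and elastic fibres, has 2 probe sets. Probe set 1422540_at read 112, 85 and 105 in PPARα-null fasted mice, against 167, 215 and 213 in PPARα-null fed mice, and 56.7, 80.4 and 59.9 in wild-type fasted mice, against 158, 170.0 and 176 in wild-type fed mice. Probe set 1451119_a_at read 895, 673 and 862 in PPARα-null fasted mice, against 1165, 1149 and 888 in PPARα-null fed mice, and 467, 784 and 545 in wild-type fasted mice, against 1059, 1067 and 1075 in wild-type fed mice. The first fell in both genotypes, by 0.67 ± 0.15 in PPARα-null mice (adjusted p = 0.0020) and by 1.06 ± 0.15 in wild-type mice (2.08-fold, adjusted p = 0.00056). The second fell by 0.55 ± 0.17 in wild-type mice (adjusted p = 0.037) and changed by −0.08 (95% interval −0.46 to 0.29) in PPARα-null mice, and its call was lost on leaving out any single wild-type array but fasted replicate 2 (−0.55 to −0.39). Elastin and the cross-linking enzymes Lox and Loxl1 lay below the level filter, with Eln at 12.9 to 15.8 in PPARα-null fasted mice, 8.84 to 12.3 in PPARα-null fed mice, 10.6 to 11.5 in wild-type fasted mice and 12.05 to 13.5 in wild-type fed mice.

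Among the matricellular and adhesive proteins, Sparc fell alike in both genotypes. Sparc (1416589_at), which binds collagen and guides its deposition, read 176, 170.4 and 177 in PPARα-null fasted mice, against 353, 321 and 293 in PPARα-null fed mice, and 159, 175 and 204 in wild-type fasted mice, against 302, 332 and 348 in wild-type fed mice. The log2 change was −0.57 ± 0.10 in PPARα-null mice (adjusted p = 0.00058) and −0.56 ± 0.10 in wild-type mice (adjusted p = 0.0028), and the difference between them was −0.01 (95% interval −0.33 to 0.31). The other Sparc probe set passed in neither genotype, at −0.17 in PPARα-null mice and −0.16 in wild-type mice. Postn, which encodes the fibroblast product periostin, read 57.5, 42 and 57 in PPARα-null fasted mice, against 93, 86.1 and 102 in PPARα-null fed mice, and 26, 64.3 and 49.9 in wild-type fasted mice, against 136, 107 and 86.7 in wild-type fed mice. It fell by 0.99 ± 0.27 in wild-type mice (1.98-fold, adjusted p = 0.019), a call that ended without wild-type fed replicate 1 (−0.81), and it measured −0.61 without wild-type fasted replicate 1, the lowest array. In PPARα-null mice its change was −0.54 (95% interval −1.12 to 0.04).

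Fibronectin and Sparcl1 passed in neither genotype. Fn1, the adhesive glycoprotein to which integrins bind, read 85.3, 98.4 and 82.1 in PPARα-null fasted mice, against 95.6, 73.1 and 79.6 in PPARα-null fed mice, and 51.5, 83.9 and 116 in wild-type fasted mice, against 107, 146 and 145 in wild-type fed mice. Its responses differed by 0.83 ± 0.33 (adjusted p = 0.090), which was not called. Sparcl1, a relative of Sparc, read 385, 366 and 395 in PPARα-null fasted mice, against 440.0, 437 and 423 in PPARα-null fed mice, and 187, 394 and 383 in wild-type fasted mice, against 518, 522 and 486 in wild-type fed mice. Wild-type fasted replicate 1 stood apart from its group here too, as it did for Dcn, Postn and Mgp.

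Mgp and Timp2 rose upon fasting in PPARα-null mice, and Timp3 and Thbs1, below the level filter, read higher there. Mgp encodes matrix Gla protein, an inhibitor of calcification made by smooth muscle cells. It read 91.7, 87.7 and 93.7 in PPARα-null fasted mice and 46.9, 46.1 and 41.1 in PPARα-null fed mice. It read 26.5, 61.3 and 49.1 in wild-type fasted mice and 52.8, 55.4 and 51 in wild-type fed mice. The PPARα-null fasted arrays were thus the 3 highest of the 12, and the wild-type groups overlapped. Mgp rose by 1.34 ± 0.22 in PPARα-null mice (2.54-fold, adjusted p = 0.00021) and changed by 0.02 (95% interval −0.46 to 0.49) in wild-type mice, a difference of 1.33 ± 0.31 (adjusted p = 0.0088). Timp2, an inhibitor that also helps to activate Mmp2, has 4 tested probe sets. The brightest (1454677_at) read 85.7, 76.6 and 74.3 in PPARα-null fasted mice, against 72.2, 61.6 and 54.7 in PPARα-null fed mice, and 49.5, 61.5 and 72.6 in wild-type fasted mice, against 66, 72.3 and 68.1 in wild-type fed mice. It rose by 0.65 ± 0.14 in PPARα-null mice (adjusted p = 0.0014, and 0.33 with no call as deposited), and its change in wild-type mice was 0.13 (95% interval −0.16 to 0.42). A dimmer one rose by 0.41, a call lost without PPARα-null fasted replicate 1 (0.28), PPARα-null fed replicate 2 (0.33) or PPARα-null fed replicate 3 (0.43), and the remaining probe sets of Timp2 were not called (0.24 each).

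Timp3 and Thbs1 lay under the filter because their fed level was low, and they entered only with a filter on a mean over 20 in any of the 4 groups. Under that filter a gene can enter through the group in which it is high, so the fold change and p of these genes describe them and do not support a statement about the list. Timp3 encodes the inhibitor that binds to the matrix itself. Its probe set 1449335_at read 73.1, 57.5 and 77.9 in PPARα-null fasted mice and 13.1, 17.7 and 13.7 in PPARα-null fed mice. It read 20.5, 22.2 and 27.7 in wild-type fasted mice and 15, 16.8 and 17.8 in wild-type fed mice. The 4 groups lay in 3 bands, with PPARα-null fasted arrays highest, wild-type fasted arrays next, and fed arrays of both genotypes together at the bottom. The log2 change was 2.55 ± 0.15 in PPARα-null mice (5.84-fold, adjusted p = 6.111e-08) and 0.81 ± 0.15 in wild-type mice (1.75-fold, adjusted p = 0.0026), and the responses differed by 1.74 ± 0.21 (adjusted p = 0.00015). A second Timp3 probe set gave 1.92 in PPARα-null mice and a difference of 1.35 (adjusted p = 0.011).

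Thbs1, thrombospondin 1, a matricellular protein that restrains vessel growth and activates latent TGF-β, read 27.4, 25.4 and 25 in PPARα-null fasted mice, against 13.5, 12.7 and 13 in PPARα-null fed mice, and 13.9, 15.2 and 16.4 in wild-type fasted mice, against 14.4, 13 and 14.5 in wild-type fed mice (1460302_at). The PPARα-null fasted arrays stood alone, and the other 3 groups lay together between 12.7 and 16.4. The change was 1.3 ± 0.09 in PPARα-null mice (2.47-fold, adjusted p = 1.39e-07) and 0.43 ± 0.09 in wild-type mice, where it was 0.12 and not called as deposited and 0.37 and not called without wild-type fasted replicate 3. Because the median shift between fed and fasted arrays was smaller at such levels (−0.18 for means of 10 to 20), removing −0.32 adds to the changes of these genes.

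**Figure D2:**
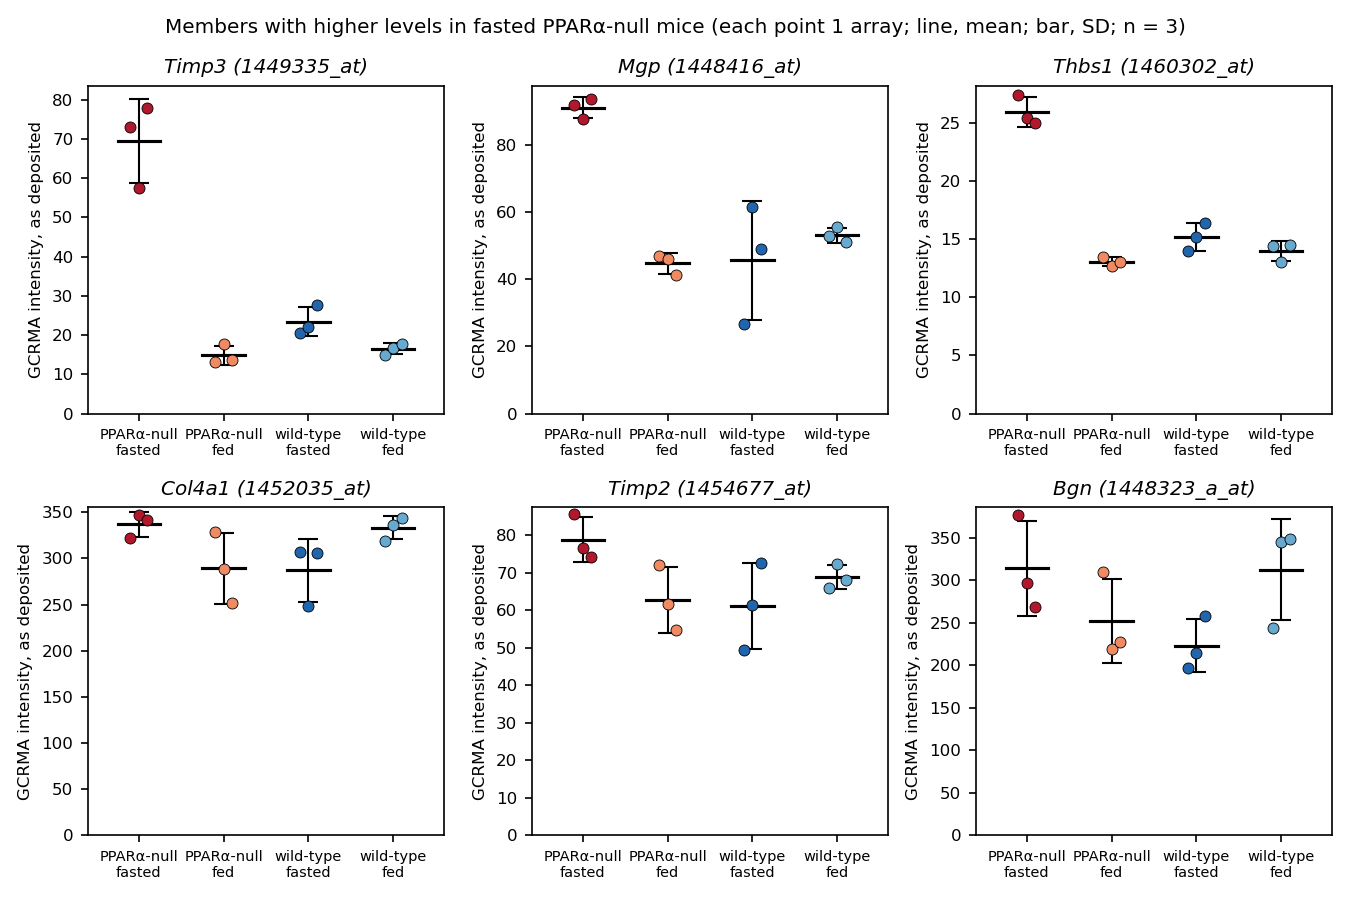
Intensity (linear scale, deposited GCRMA values) of Timp3, Mgp, Thbs1, Col4a1, Timp2 and Bgn on each array in the 4 groups, with arrays as points, group means as lines and SD as bars (n = 3). The PPARα-null fasted arrays of Timp3 (57.5 to 77.9), Mgp (87.7 to 93.7) and Thbs1 (25 to 27.4) lie above every other array.

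Between the genotypes, few calls were made in fed mice. In PPARα-null mice 0 of the 25 matrix genes were higher and 2 were lower, against 1.22% and 2.06% of all tested genes. At an unadjusted p under 0.05 by limma, 8 of the 25 passed, against 14.8% of all tested genes. The lower genes were Col18a1 (−0.41 ± 0.11) and the dim probe set of Col6a2 (−0.59 ± 0.14), which read 28.4, 29.5 and 32.5 in PPARα-null fed mice and 33.8, 51.2 and 54.1 in wild-type fed mice, and neither passed after adjustment (adjusted p = 0.16 and 0.11). The median over the matrix genes was −0.23, against 0.04 over all tested genes. Of the 25 genes, 24 lay below 0, against 2183 of all 5821 tested genes. Fn1, at −0.67, was not called but was called in 6 of 28 alternatives. The number of calls in fed mice was set by single arrays: it was 6 without wild-type fed replicate 1, and 1 without PPARα-null fed replicate 2 or wild-type fed replicate 3, where Col18a1 was lost (−0.33 and −0.36).

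In fasted mice 3 matrix genes were higher and 4 lower in PPARα-null than in wild-type mice, against 14.4% and 21.4% of all tested genes, so these counts lay near the background. With quantile normalization of the 12 arrays together they were 4 higher and 3 lower. Lower in fasted PPARα-null mice were Col3a1 (−1.63 ± 0.17, 3.10-fold, adjusted p = 1.729e-05), Serpinh1 (−1.27 ± 0.15, 2.42-fold, adjusted p = 3.132e-05), Col1a1 (−0.63 ± 0.13, adjusted p = 0.0021) and Col6a3 (−0.55 ± 0.18, adjusted p = 0.027). Second probe sets gave −0.32 for Col3a1 (95% interval −0.75 to 0.10) and −0.31 for Serpinh1 (−0.64 to 0.02), neither of them called, so the probe sets of both genes disagree here too. The higher genes were Mgp (1.08 ± 0.22, 2.11-fold, adjusted p = 0.0019), Fbln5 (0.75 ± 0.20, adjusted p = 0.012) and Fbln1 (0.62 ± 0.15, adjusted p = 0.0053). The Fbln1 call is of its dimmer probe set (1422540_at), and the brighter one (1451119_a_at) gave 0.46 and was not called. The Col6a3 call was lost on leaving out any of 8 arrays (−0.58 to −0.41), with the smallest value without wild-type fasted replicate 2. The Fbln5 call was lost with PPARα-null fasted replicate 1 (0.70) or wild-type fasted replicate 1 (0.65) or 2 (0.71) left out.

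The difference between the fasting responses, which sets both genotypes' changes against each other, was called for 8 of the 25 matrix genes. It was higher, meaning a smaller fall or a larger rise in PPARα-null mice, for 6 genes (Mgp, Fbln5, Bgn, Col18a1, Dcn and Col4a1) and lower for 2 (Col3a1 and Serpinh1), against 10% and 18.5% of all tested genes. The median difference was 0.42 over the matrix genes and −0.07 over all tested genes. Of the 25 genes, 10 lay below 0, against 3371 of all 5821 tested genes. Among the called genes, the fibrillar chain Col3a1 and the chaperone Serpinh1 fell further in PPARα-null mice, while the proteoglycans, the fibulin, the basement membrane collagens and Mgp had the more positive change there. That grouping was read after the values were known and has no test of its own.

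**Figure D3:**
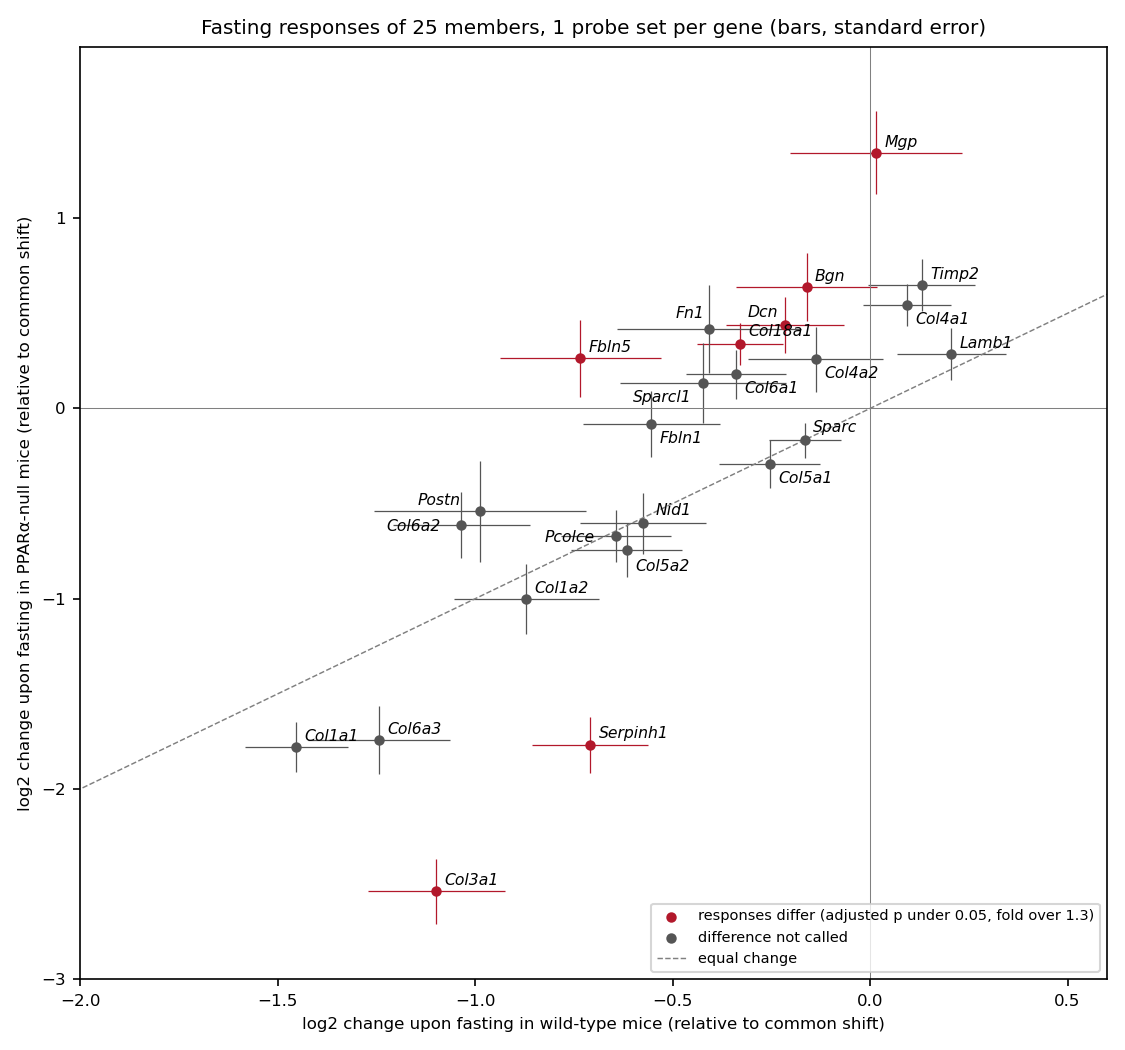
Log2 change upon fasting in PPARα-null mice (vertical axis) against that in wild-type mice (horizontal axis) for the 25 tested genes, by the probe set of highest mean, relative to the common shift, with SE as bars. Red points are genes whose shown probe set passed the test of the difference between the responses. Col3a1 (−2.54 in PPARα-null and −1.10 in wild-type mice) and Serpinh1 (−1.77 in PPARα-null and −0.71 in wild-type mice) lie below the diagonal, and Mgp (1.34 in PPARα-null and 0.02 in wild-type mice) lies furthest above it.

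**Figure D4:**
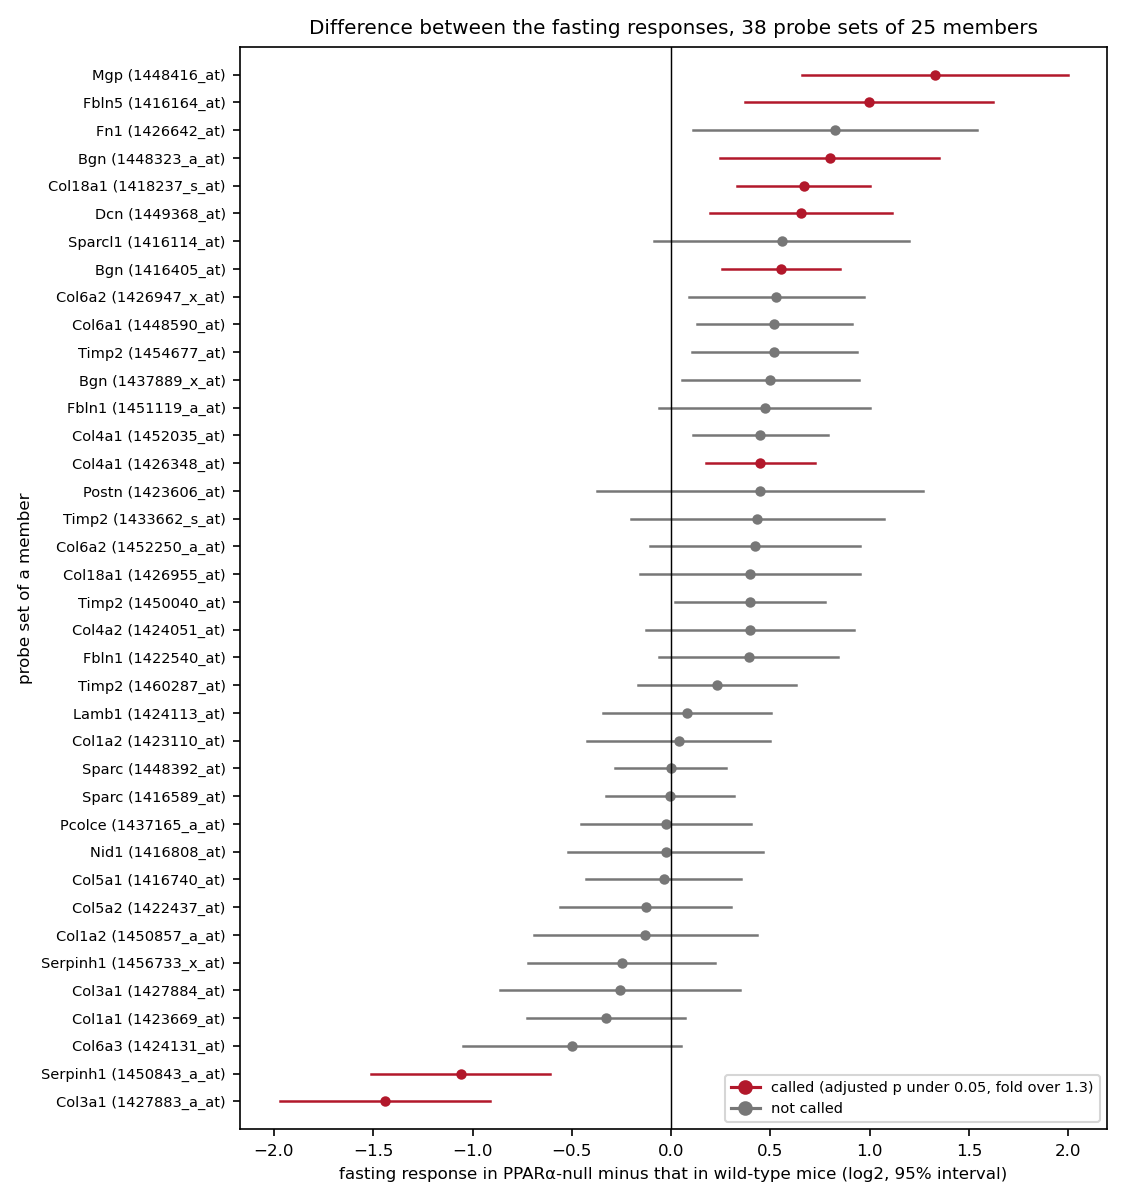
Difference between the fasting responses (PPARα-null minus wild-type, log2) of the 38 tested probe sets, with 95% intervals as bars. The main probe sets of Col3a1 (−1.44) and Serpinh1 (−1.06) stand at the low end and Mgp (1.33) at the high end, and the second probe sets of Col3a1 (−0.26) and Serpinh1 (−0.25) have intervals that cross 0.

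Related genes outside the 40 were read from lists of the same pathways. Of 31 other collagens, 23 were found and none passed the level filter. Of 5 tested genes of collagen processing, Crtap, a subunit of the prolyl 3-hydroxylase complex, fell in PPARα-null mice (−0.62) and in wild-type mice (−0.59), and Mia3, which loads procollagen into transport carriers, rose in PPARα-null mice (0.40). Of 15 other matrix glycoproteins, 2 rose and 3 fell in PPARα-null mice, shares at or below those over all genes. In wild-type mice 0 rose and 2 fell, against 12.9% and 9.95% of all tested genes. At an unadjusted p under 0.05 by limma, 5 of the 15 passed in wild-type mice, against 44.6% of all tested genes. Dermatopontin (Dpt), which binds decorin, fell by 0.40 in PPARα-null mice and by 0.94 in wild-type mice, a difference of 0.54 (adjusted p = 0.045). Smoc2, a Sparc relative, fell by 0.67 in PPARα-null mice and measured 0.18 in wild-type mice, a difference of −0.86 (adjusted p = 0.0055), though its second probe set gave a difference of 0.04.

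Lamb3, a chain of the epithelial laminin that anchors cells to the basement membrane, was the 1 tested gene among the other laminins. It read 324, 402 and 337 in PPARα-null fasted mice, against 53.1, 81.2 and 61.4 in PPARα-null fed mice, and 220.1, 177 and 168 in wild-type fasted mice, against 87.4, 89.1 and 94.8 in wild-type fed mice. Every fasted array lay above every fed array, and Lamb3 rose by 2.77 in PPARα-null mice and by 1.37 in wild-type mice, a difference of 1.41 (adjusted p = 0.00063). Among proteases, Mmp10 (stromelysin 2) rose by 1.03 in PPARα-null mice and Mmp7 (matrilysin) by 0.74 in wild-type mice. Of 11 tested matrix receptors, 3 rose and 4 fell in PPARα-null mice and 2 rose and 3 fell in wild-type mice, counts too small to be set apart from the shares over all genes. The collagen receptor Ddr1 fell by up to 1.34 in PPARα-null mice, with a difference between the responses of −1.24 for 1 of its probe sets (adjusted p = 0.00050). In the TGF-β pathway, the main inducer of collagen genes, 4 of 10 tested genes rose and 2 fell in PPARα-null mice. Examples were Smad2 at 0.99, Smad4 at 0.94, Bmp4 at −0.61 and Ski at −0.66. In wild-type mice 1 rose (Smad4 at 0.64) and 0 fell. Over all tested genes 22.6% rose and 29.1% fell in PPARα-null mice, and 12.9% rose and 9.95% fell in wild-type mice. With so few genes the counts of this pathway cannot be set apart from those shares.

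Markers of the other cell types of the gut wall were read beside the matrix genes, against the shares of all tested genes given above (29.1% lower and 22.6% higher in PPARα-null mice, 9.95% lower and 12.9% higher in wild-type mice). Of 14 tested smooth muscle markers, 1 rose and 3 fell in PPARα-null mice, with a median of −0.21, a share lower than over all genes. In wild-type mice 10 of the 14 fell, with a median of −0.55. Their summed intensity over 17 genes was 7010.2 to 7320.5 in PPARα-null fasted mice, 10220.0 to 10694 in PPARα-null fed mice, 4863 to 7575 in wild-type fasted mice and 10820.0 to 12474 in wild-type fed mice, with the lowest sum in wild-type fasted replicate 1. Of 7 tested fibroblast markers, 3 rose (Foxf2, Pdgfra and Foxf1) and 2 fell (Tcf21 and Vim) in PPARα-null mice, and 2 fell in wild-type mice (Pdgfrb and Vim). Their median changes relative to the shift were 0.24 in PPARα-null mice and 0.15 in wild-type mice, and the positive sign of both depends on removing that shift. The fibroblast sums, which still contain the shift, were 2237 to 2291 in PPARα-null fasted mice and 2295 to 2509 in PPARα-null fed mice. In wild-type mice these sums were 2053 to 2253 when fasted and 2431 to 2558 when fed. Of 6 tested endothelial markers, 2 rose and 0 fell in PPARα-null mice (median 0.29), and 1 rose and 0 fell in wild-type mice (median 0.08). At an unadjusted p under 0.05 by limma, 3 of the 6 passed in PPARα-null mice, against 68.1% of all tested genes. In wild-type mice 2 of the 6 did, against 44.6%, so neither share lay above that over all genes. The endothelial sums were 547 to 624 in PPARα-null fasted mice, 515 to 577 in PPARα-null fed mice, 470.2 to 541 in wild-type fasted mice and 548 to 594 in wild-type fed mice. Of 10 tested immune cell markers, 6 fell in PPARα-null mice and 4 in wild-type mice, and of 14 epithelial markers, which mark the tissue, 1 rose and 1 fell in PPARα-null mice and 2 rose in wild-type mice. Of 5 tested fat cell markers, 2 rose in PPARα-null mice (Fabp4 and Cidec) and 1 in wild-type mice (Fabp4). Relative to the shift, 2 of the 5 had a negative change in PPARα-null mice and 3 in wild-type mice. Lpl and Aqp7 were called lower in PPARα-null than in wild-type mice, both fed and fasted. The fat cell sums were 1676 to 2016 in PPARα-null fasted mice and 512 to 864 in PPARα-null fed mice. In wild-type mice they were 904 to 1093 when fasted and 783 to 999 when fed. The share of these cell types in the changes of matrix genes was not tested, and in RNA of whole intestine fewer cells of a type and less RNA per cell cannot be told apart.

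**Figure D5:**
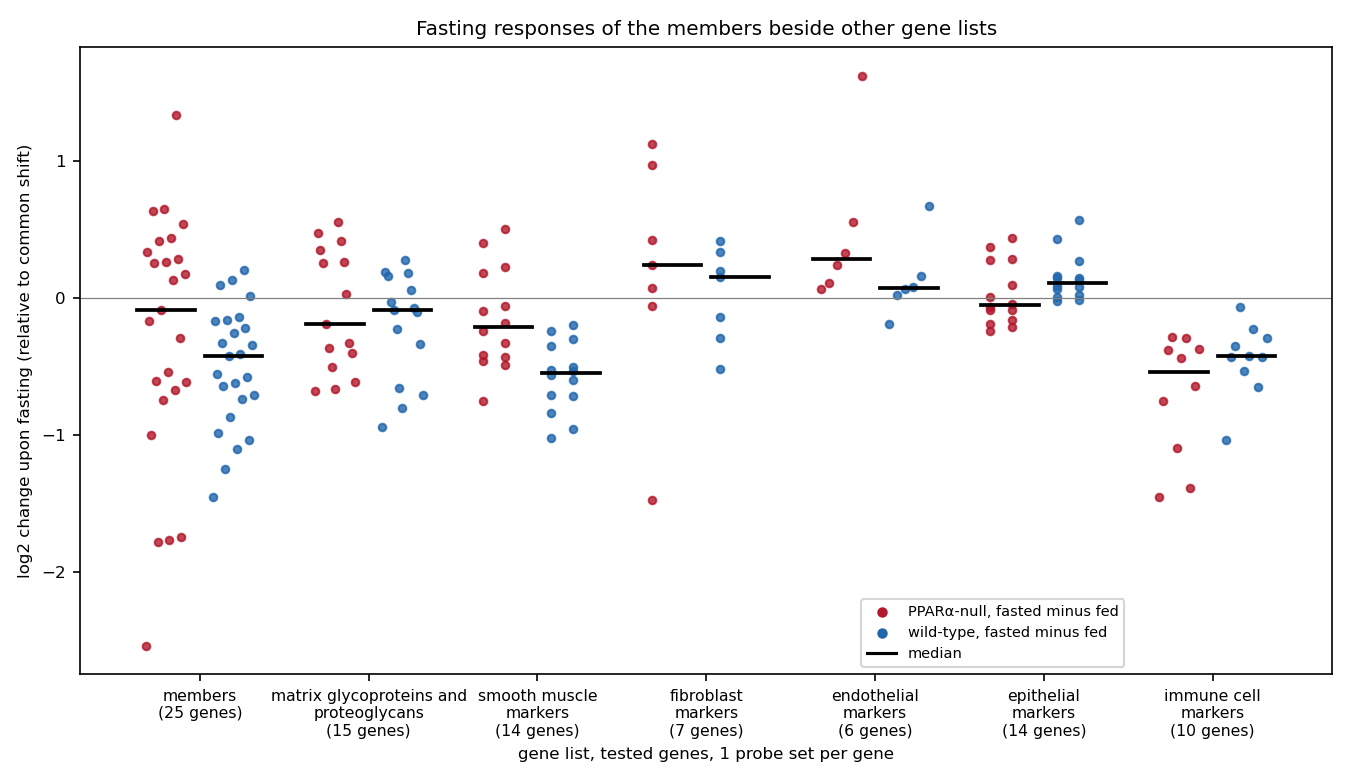
Log2 change upon fasting, relative to the common shift, of each tested gene in the matrix genes and in 6 other lists, with PPARα-null values left of wild-type values in each list and a line at the median. The median of the matrix genes is −0.08 in PPARα-null and −0.42 in wild-type mice, that of smooth muscle markers −0.21 in PPARα-null and −0.55 in wild-type mice, and that of fibroblast markers 0.24 in PPARα-null and 0.15 in wild-type mice.

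Transcripts of pancreatic acinar cells were higher in fasted mice, but not on every array. Of 12 tested acinar markers, 8 rose and 0 fell in PPARα-null mice, with a median of 4.17, and 10 rose and 0 fell in wild-type mice, with a median of 5.2. Without Zg16, a gene also of goblet cells, their summed intensity was 28348, 1150.2 and 29340.0 in PPARα-null fasted mice, 1318, 1270.1 and 1555 in PPARα-null fed mice, 23830.0, 19645 and 12716 in wild-type fasted mice, and 2918, 1148 and 1529.9 in wild-type fed mice. PPARα-null fasted replicate 2 was thus at the level of fed mice. Its Col3a1 (182), Serpinh1 (27.5) and Timp3 (57.5) were nearer to the fed values than on the other PPARα-null fasted arrays. Those arrays read 111 and 136 for Col3a1, 22.3 and 18.2 for Serpinh1, and 73.1 and 77.9 for Timp3. On replicate 2 these genes still lay outside the range of the fed arrays, and a link to acinar content was not tested. A further fit kept that array alone in its group, its spread assumed to be that of the other groups. The differences between the responses were then −1.06 for Col3a1, −0.76 for Serpinh1, 0.76 for Col18a1 and 0.62 for Col4a1. With all arrays they were −1.44, −1.06, 0.67 and 0.45. The fasted genotype contrasts of Col3a1 (−1.25) and Serpinh1 (−0.97) were smaller than with all arrays (−1.63 and −1.27). Those of Col4a1 (0.46) and Col5a1 (−0.66) were larger than with all arrays, where neither was called (0.29 and −0.34). With that array alone, the differences of Mgp (1.28), Fbln5 (1.0), Bgn (0.73 and 0.49) and Dcn (0.65) missed the threshold. So did the fasted genotype contrasts of Col1a1 (−0.44), Fbln1 (0.39), Mgp (1.03), Fbln5 (0.76) and Col6a3 (−0.51).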

How the data were processed

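The authors deposited 1 linear intensity per probe set for 12 MOE430A arrays (22690 probe sets). Per the submitters' processing notes GCRMA 2.20 had been used, which corrects background by probe sequence, quantile-normalizes arrays and summarises the probes of a set. Log2 values were fitted in R 4.3.3 with limma 3.58.1 (lmFit and eBayes, 1 mean per group, 8 residual and 4.67 prior degrees of freedom). Probe sets were named by the platform annotation: 20393 had 1 symbol, 691 several and 1606 none, and only the first named a gene. Genes counted once if any probe set passed, and the probe set of highest mean stood for a gene in medians and figures. The common shift of −0.32 was removed from the fasting contrasts. Replicates of a group correlated at 0.9906 to 0.9969 and differed by a median of at least 0.123 on the log2 scale, so no library was counted as a duplicate. The number of arrays limits the precision, and the sources used here do not say whether a replicate pools mice, so p-values measure the spread between these samples.

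Members and lists were chosen with earlier results of these data known. Values on every array are given for members called in a comparison (up to 6 rises and 6 falls each) and for the 5 of highest wild-type fed intensity, other members of a family are described briefly, and up to 3 rises and 3 falls are named in other lists. Alternatives were values as deposited, quantile normalization, median centring, other level filters (over 20 in any group, over 100, none), the other call rule, trended and robust variances, array weights, fits of 2 groups, the replicate block, 1 probe set per gene, no _s_at or _x_at probe sets, and each array left out. Chosen after seeing the data were a filter on the mean over 12 arrays, a shift by level, and PPARα-null fasted replicate 2 alone in its group. The fit was tested on simulated data. Promoters came from RefSeq (GRCm38.p6). A probe set of Thbs1 with several symbols was left out.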

Additional observations from a re-analysis of the deposited data

Results flagged for a closer look

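The fasting response differed between the genotypes, by the test of the difference itself (PPARα-null minus wild-type, log2), for 9 probe sets of matrix genes. It was negative for Col3a1 (−1.44) and Serpinh1 (−1.06). It was positive for Mgp (1.33), Fbln5 (1.0), Bgn (0.80 and 0.55 for separate probe sets), Col18a1 (0.67), Dcn (0.65) and Col4a1 (0.45). A further 3 probe sets, of Timp3 (1.74 and 1.35) and Thbs1 (0.87), entered only with the level filter on any group, through the group in which they are high, and their values are a description. Genotype cannot be told apart from substrain in any of these.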

How the results depend on the processing

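No call reversed its direction under any alternative that was run: of 68 calls on single probe sets, 1661 refits kept the call and 130 lost it. Results not called in the main fit gained a call in 99 refits. A change of sign was not counted where neither fit gave a call, and such changes occurred. The fasting change of Col6a1 in PPARα-null mice, for example, was 0.18 and ranged down to −0.14. With a level over 100 in wild-type fed mice, which leaves 14 matrix genes, the calls were 8 for fasting in PPARα-null mice, 8 for fasting in wild-type mice, 0 for genotype when fed, 3 for genotype when fasted and 5 for the difference between the responses. The fasting calls comprise 6 falls in PPARα-null mice, where 27.8% of 3314 genes fell, and 8 in wild-type mice, where 9.38% fell. Without a level filter 24 of 39 genes were called for fasting in PPARα-null mice (12 higher and 12 lower, against 28.1% higher and 15.7% lower of all 12394 genes). Genotype when fed gave 0 calls under the adjusted p, 1 with 1 probe set per gene, 0 without _s_at and _x_at probe sets, and 1 to 6 on leaving out 1 array. With PPARα-null fasted replicate 2 alone in its group, genotype when fasted gave 4 calls (1 higher and 3 lower, against 11% and 15.6% of all genes) and the difference 4 (2 higher and 2 lower, against 5.89% and 11.6%). On leaving out 1 array the calls were 13 to 17 for fasting in PPARα-null mice, 13 to 15 for fasting in wild-type mice, 5 to 8 for genotype when fasted and 6 to 11 for the difference. The cause of these changes was not tested, beyond the fewer genes or arrays that enter. After group means were removed, 18 pairs of arrays with the same replicate number, from different groups, correlated at −0.149 to 0.218. The 36 pairs of different numbers correlated at −0.283 to 0.224. Of these pairs, 5 of the 18 and 7 of the 36 were over 0.1. The ranges overlap, and with 3 arrays a group they cannot decide whether the replicate number pairs the samples. With the replicate block the counts were 15 for fasting in PPARα-null mice, 14 for fasting in wild-type mice, 2 for genotype when fed, 7 for genotype when fasted and 7 for the difference. The shift between fed and fasted arrays depended on level, from −0.09 for mean intensities up to 10 to −0.36 for 100 to 500, so 1 constant does not suit every gene.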
